A study of Mus musculus with 8 samples.

Results

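T-bet loss was examined in helper T cells that already lacked STAT6, by comparing 2 double-null libraries (T-bet-/- STAT6-/-) with 2 STAT6-null libraries (STAT6-/-). The members are the 4 libraries that carry these labels, of 8 in the series, and the genes compared are the 10281 of 11841 listed symbols with at least 1 FPKM in at least 2 of the 8 libraries. FPKM counts fragments scaled by transcript length and by library depth, so levels of different genes can be set side by side. Differences are double-null minus STAT6-null on log2(FPKM + 1), a scale that shrinks the change of genes with low values.

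The cells were CD44+ CD4+ T cells, which have met antigen before, taken from lymph nodes that drain the skin of BALB/cAJcl mice. They were exposed to PMA with ionomycin, agents that trigger T cells without engaging the antigen receptor, for 2 h before RNA was isolated. Both genotypes therefore lacked STAT6, and the double-null cells lacked T-bet as well. The 2 T-bet-null and 2 WT libraries, in which STAT6 was intact, were used as a second comparison of T-bet loss that shares no library with the first. The labels state neither age nor sex of the mice, nor whether RNA was pooled, nor whether 2 libraries of 1 genotype are separate mice. The p-values therefore measure the spread between these libraries alone, which may be technical. They give null genotypes, with no cell type named for either deletion. Changes in bulk RNA cannot tell fewer cells of a kind from less RNA per cell.

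T-bet, encoded by Tbx21, is a T-box transcription factor that directs helper T cells to the Th1 fate, in which they make interferon gamma and display the chemokine receptor CXCR3. It also holds back the Th17 programme, which yields IL-17 and IL-22. STAT6 acts downstream of the IL-4 receptor and promotes the Th2 fate.

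The 4 libraries were alike in depth, with 1.11 times between the deepest and the shallowest by the steps of low FPKM values, which put STAT6-null replicate 1 at roughly 19.3 x 1000000 fragments. Pearson r of log2(FPKM + 1) over the genes tested was 0.9971 within the STAT6-null pair, 0.9965 within the double-null pair and 0.9859 to 0.9888 between the pairs. These are correlations over genes, which are not replicates. The SD of each replicate pair was taken per gene on the log2 scale. Its median over genes with a mean of 16 to 64 FPKM in the 8 libraries was 0.0406 in STAT6-null and 0.0591 in double-null libraries. With either STAT6-null library left out, the spread is estimated from the double-null pair alone and far fewer genes passed the test. The WT libraries stood apart from all others, with r of 0.9341 to 0.9536 against mutant libraries.

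Tbx21 (chr11:97098007-97115331, mm10) was read first as the check of the labels. It stood at 102 and 92.1 FPKM in the STAT6-null and 2.49 and 2.09 FPKM in the double-null libraries, 42.3-fold lower (log2 difference -4.90, SE 0.0867, adjusted p = 1.84e-06 by limma's moderated test with Benjamini-Hochberg adjustment). The transcript was low in both double-null libraries but not absent. Stat6 (chr10:127642955-127660987), targeted in both genotypes, stood at 31.6 and 28.99 FPKM in the STAT6-null and 29.6 and 26.9 FPKM in the double-null libraries. Those values overlapped (log2 difference -0.10, SE 0.0753, adjusted p = 0.411), and the transcript was present in all 4 libraries. Where STAT6 was intact it stood at 89.9 and 90.9 FPKM in WT and 88.8 and 89.8 in T-bet-null libraries, above all 4. The sources used here do not name the deleted exons of either gene.

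At an adjusted p under 0.05, 803 of 10281 genes (7.81%) rose and 621 (6.04%) fell in double-null against STAT6-null cells, together 13.9%. Calls of at least 2-fold, here and below a log2(FPKM + 1) difference of at least 1 either way, were fewer. They were 45 genes (0.438%) higher and 60 (0.584%) lower. Folds given for single genes are ratios of mean FPKM, which run larger at low values. Cd70, for example, fell 2.56-fold in FPKM but by -0.82 on the log2 scale and is not among them. The median difference over all genes tested was 0.01. In 6231 genes (60.6%) both libraries of 1 genotype lay above both of the other, so that separation by itself is common here. The counts rest on the replicates: they were 98 higher and 132 lower without STAT6-null replicate 1, and 125 and 167 without replicate 2. They were 1180 and 650 without double-null replicate 1, and 507 and 533 without replicate 2. No gene called changed direction in any of these fits, which could not happen for genes whose genotypes do not overlap.

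**Figure D1:**
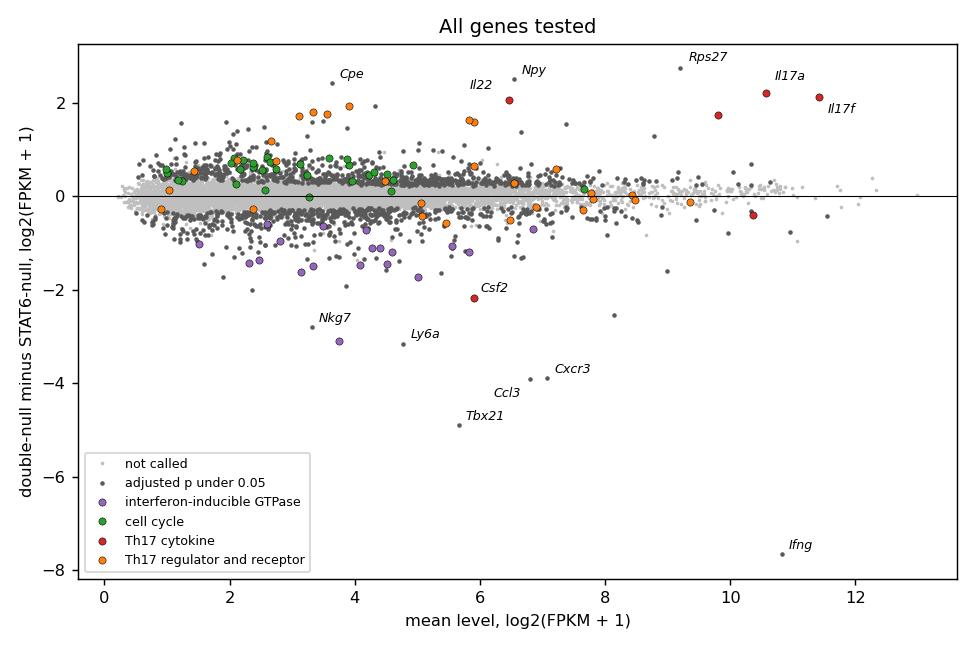
Each point is 1 of the 10281 genes tested, with the mean level of the 4 libraries as log2(FPKM + 1) on the x axis and the double-null minus STAT6-null difference as log2(FPKM + 1) on the y axis; dark points are genes at an adjusted p under 0.05 and 4 gene lists are coloured. Ifng lies lowest at -7.66, the interferon-inducible GTPases all lie below 0, and Il17a and Il17f stand at 2.21 and 2.12.

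The 5 genes that mark the comparison, of Th1 and Th17 cells, are described first. Ifng (chr10:118441046-118445894), the Th1 effector cytokine, stood at 3516 and 3704 FPKM in the STAT6-null and 15.96 and 17.8 FPKM in the double-null libraries. It fell 214-fold (log2 difference -7.66, SE 0.0701, adjusted p = 7.56e-08), the largest fall of any gene tested. Cxcr3 (chrX:101731535-101734147), the receptor that guides Th1 cells to inflamed tissue, stood at 254 and 251 FPKM in the STAT6-null and 15.7 and 16.4 FPKM in the double-null libraries and fell 15.7-fold (log2 difference -3.89, SE 0.0561, adjusted p = 7.24e-07). Ccl3 (chr11:83647843-83649378), a chemokine that draws macrophages and T cells, stood at 226 and 189.9 FPKM in the STAT6-null and 12.4 and 13.2 FPKM in the double-null libraries and fell 16.3-fold (log2 difference -3.92, SE 0.0903, adjusted p = 7.62e-06). In all of these the replicates of a genotype lay close together and the genotypes were far apart.

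Genes that mark Th17 cells moved the other way. Il23r (chr6:67422932-67491855), the receptor through which IL-23 sustains Th17 cells, stood at 4.398 and 6.08 FPKM in the STAT6-null and 20.5 and 24.96 FPKM in the double-null libraries, 4.34-fold higher (log2 difference 1.94, SE 0.146, adjusted p = 0.00101). Ccr6 (chr17:8236041-8258519), the receptor for the skin and gut chemokine CCL20, stood at 26.9 and 26.3 FPKM in the STAT6-null and 83.1 and 85.7 FPKM in the double-null libraries, 3.17-fold higher (log2 difference 1.63, SE 0.0562, adjusted p = 5.18e-05). Neither pair of genotypes overlapped. All 5 genes kept their call at every alternative and without each library.

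**Figure D2:**
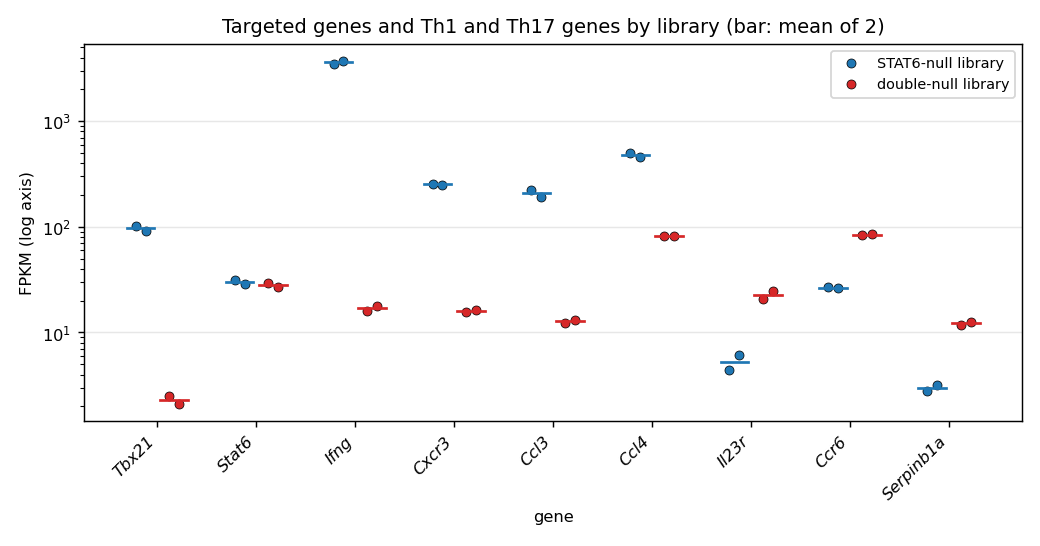
FPKM on a log axis for Tbx21, Stat6, 4 Th1-type genes and 3 Th17-type genes in each STAT6-null (blue) and double-null (red) library, with a bar at the mean of 2. Ifng, Cxcr3, Ccl3 and Ccl4 lie lower in both double-null libraries, Il23r, Ccr6 and Serpinb1a lie higher, and Stat6 overlaps.

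The bases just upstream of the start of the 5 genes are shown as the places where promoter factors could sit. They are the 250 bases before the annotated start, 5′ to 3′ on the gene's strand, from RefSeq on GRCm38.p6, the assembly behind mm10, and capitals mark 7-base matches to either of 2 motifs. Both strands were searched. The T-box half-site, bound by T-bet and its relatives, was taken as GGTGTGA. On the opposite strand this reads TCACACC. The ROR element, bound by Rora's product and related receptors, was taken as TAGGTCA. On the opposite strand that reads TGACCTA. No stretch shown holds more than 1 match, so none overlap. For Ccr6 the first of 2 annotated starts is shown.
Ifng, chr10:118440796-118441045, plus strand: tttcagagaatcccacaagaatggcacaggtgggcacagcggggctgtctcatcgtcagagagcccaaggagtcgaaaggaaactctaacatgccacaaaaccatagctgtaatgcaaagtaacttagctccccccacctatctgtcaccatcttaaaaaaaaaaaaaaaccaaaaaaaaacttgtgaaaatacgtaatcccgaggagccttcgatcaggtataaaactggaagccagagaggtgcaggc
Cxcr3, chrX:101734148-101734397, minus strand: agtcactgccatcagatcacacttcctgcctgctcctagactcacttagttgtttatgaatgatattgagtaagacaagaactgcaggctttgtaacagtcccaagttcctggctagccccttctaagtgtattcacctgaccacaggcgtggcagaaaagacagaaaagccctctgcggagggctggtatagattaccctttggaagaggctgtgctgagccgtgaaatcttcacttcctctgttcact
Ccl3, chr11:83649379-83649628, minus strand: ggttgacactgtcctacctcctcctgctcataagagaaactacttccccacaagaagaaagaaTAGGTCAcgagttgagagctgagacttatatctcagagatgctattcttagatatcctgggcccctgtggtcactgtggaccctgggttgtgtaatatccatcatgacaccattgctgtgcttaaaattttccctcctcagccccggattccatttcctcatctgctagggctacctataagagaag
Il23r, chr6:67491856-67492105, minus strand: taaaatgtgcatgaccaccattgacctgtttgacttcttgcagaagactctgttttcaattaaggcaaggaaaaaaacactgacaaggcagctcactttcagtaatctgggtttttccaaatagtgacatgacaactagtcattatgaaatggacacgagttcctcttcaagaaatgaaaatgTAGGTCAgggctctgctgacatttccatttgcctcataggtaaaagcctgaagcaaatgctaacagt
Ccr6, chr17:8235793-8236042, plus strand: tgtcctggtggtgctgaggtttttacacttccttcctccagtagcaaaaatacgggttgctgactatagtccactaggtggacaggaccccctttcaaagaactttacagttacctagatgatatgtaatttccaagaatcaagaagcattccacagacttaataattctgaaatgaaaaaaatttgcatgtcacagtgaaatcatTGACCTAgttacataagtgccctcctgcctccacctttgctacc
The ROR element stood 187 bases before the start of Ccl3, 67 before that of Il23r and 44 before that of Ccr6. In Ifng it stood 17 bases after the start, outside the stretch shown, and at the second start of Ccr6 no match was found. No T-box half-site stood in these 5 stretches, which says only that these letters are not in this window.

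Among genes lower by at least 2-fold, 4 of the 41 with a promoter window held the T-box half-site. The window was 300 bases, from 250 before to 50 after any annotated start. They are the chemokine gene Xcl1, the receptor gene Cd160, the granule gene Nkg7 and the antibacterial protein gene Pglyrp1, of which Pglyrp1 was picked after its values were seen. Their matches stood 188, 189, 13 and 78 bases before an annotated start, and are shown with their flanks. The match of Cd160 lies inside the span of the gene (chr3:96798763-96829351), so its start is an internal one. For these genes only a start with a match is given, and any other start is not shown.
Xcl1, chr1:164935684-164935730, minus strand: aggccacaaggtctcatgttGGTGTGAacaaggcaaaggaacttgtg
Cd160, chr3:96814684-96814730, minus strand: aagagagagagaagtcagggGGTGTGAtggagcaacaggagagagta
Nkg7, chr7:43437105-43437137, plus strand: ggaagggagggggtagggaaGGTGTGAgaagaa
Pglyrp1, chr7:18884592-18884638, plus strand: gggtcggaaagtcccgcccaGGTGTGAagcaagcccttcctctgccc
By window, the T-box half-site stood in 8.89% of those of genes lower by at least 2-fold, 4.68% of all called lower, 2.78% of all called higher and 3.26% of genes tested. The ROR element stood in 4.35% of windows of genes higher by at least 2-fold, 4.44% of those lower by at least 2-fold and 1.8% of those of genes tested. These shares are descriptions of 45 and 46 windows in the groups of at least 2-fold, with no test, and a match is not evidence of binding. Pglyrp1 itself stood at 12.4 and 11.02 FPKM in the STAT6-null and 4.04 and 6.61 FPKM in the double-null libraries (log2 difference -1.03, adjusted p = 0.0172).

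Of the Th1 effector and receptor genes, 10 of 24 tested fell and 1 rose (median difference -0.17, against 0.01 over all genes). Over all genes tested 7.81% rose and 6.04% fell, the shares to set beside this and every later list count. Beside Ifng, Tbx21 and Cxcr3 those that fell included Irf1, Havcr2, Lta, Runx3 and Ltb, and the 1 that rose was Tnfsf11. Lta, the ligand lymphotoxin alpha, stood at 44.9 and 39.2 FPKM in the STAT6-null and 30.8 and 28.2 FPKM in the double-null libraries (log2 difference -0.50, SE 0.0841, adjusted p = 0.0153). Of receptor genes for IL-12 and IL-18, Il12rb1 gave 0.06, Il18r1 -0.14 and Il18rap -0.12, and none passed the test. Stat4, the partner of IL-12 signalling, gave -0.19 (adjusted p = 0.0692). The count of genes that fell was 6 with either STAT6-null library left out. The call of Lta was lost when either STAT6-null library was left out, and over all alternatives the adjusted p ran from 0.00222 to 0.132.

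Chemokine ligands fell in part, with 5 of 11 tested lower and 1 higher (median -0.44). Ccl4, the neighbour and close relative of Ccl3, stood at 503 and 460.1 FPKM in the STAT6-null and 81.9 and 82.3 FPKM in the double-null libraries, 5.87-fold lower (log2 difference -2.54, SE 0.0632, adjusted p = 1.01e-05). Xcl1, which attracts cross-presenting dendritic cells, stood at 74.4 and 50.3 FPKM in the STAT6-null and 16.3 and 22.2 FPKM in the double-null libraries (log2 difference -1.64, SE 0.202, adjusted p = 0.00524). Ccl1 (log2 difference -1.59) and Ccl5 (-0.82) fell as well, whereas Ccl20, the ligand of CCR6, rose from 371 and 452 to 1313 and 1424 FPKM (log2 difference 1.74, SE 0.102, adjusted p = 0.00035). The ligands thus split, with those of CCR8 and XCR1 lower and that of CCR6 higher.

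Receptors for chemokines and for node homing gave 7 higher and 6 lower of 23 (median 0.09). Ccr7, which leads cells into lymph nodes, stood at 41.6 and 33.2 FPKM in the STAT6-null and 19.1 and 18.5 FPKM in the double-null libraries (log2 difference -0.95, SE 0.105, adjusted p = 0.00355). Ccr4, a skin-homing receptor of Th2 cells, stood at 24.3 and 24.6 FPKM in the STAT6-null and 46.6 and 52.1 FPKM in the double-null libraries (log2 difference 0.98, SE 0.0706, adjusted p = 0.000831). Among others, Ccr8 (-0.87), Ccr3 (-0.75) and Cxcr5 (-0.71) were lower, and Gpr15 (0.78), S1pr1 (0.55), Ltb4r1 (0.53) and Cxcr4 (0.31) higher. The 2 receptors that open node homing and node exit, Ccr7 and S1pr1, therefore moved in opposite directions. Without STAT6-null replicate 1 the counts were 3 higher and 4 lower, and without replicate 2 they were 2 and 5. The call of Cxcr5 was lost when STAT6-null replicate 1 was left out, and over all alternatives the adjusted p ran from 0.0038 to 0.0823. The call of S1pr1 was lost when STAT6-null replicate 2 or double-null replicate 2 was left out, and over all alternatives the adjusted p ran from 0.0143 to 0.141.

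Genes of cytotoxic cells gave 7 lower and 1 higher of 19 (median -0.31). Nkg7, a membrane protein of cytotoxic granules, stood at 17.2 and 15.6 FPKM in the STAT6-null and 1.43 and 1.57 FPKM in the double-null libraries, 10.9-fold lower (log2 difference -2.80, SE 0.0831, adjusted p = 2.60e-05). Ctsw, a granule-associated protease, stood at 9.801 and 9.46 FPKM in the STAT6-null and 4.16 and 4.13 FPKM in the double-null libraries (log2 difference -1.05, SE 0.0704, adjusted p = 0.000596). Serpinb9, an inhibitor of granzyme B, stood at 4.28 and 4.14 FPKM in the STAT6-null and 2.18 and 2.05 FPKM in the double-null libraries (log2 difference -0.74, SE 0.0788, adjusted p = 0.0031). In all 3 both double-null libraries lay below both STAT6-null ones. Of the killing molecules themselves, Gzma fell (-0.74, from 2.31 and 1.65 to 0.545 and 1.05 FPKM), while Gzmb (0.10) and Prf1 (-0.31) did not pass. The count that fell was 4 without STAT6-null replicate 1 and 5 without replicate 2. The call of Gzma was lost when STAT6-null replicate 1 or STAT6-null replicate 2 or double-null replicate 1 was left out, and over all alternatives the adjusted p ran from 0.0158 to 0.208.

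Other genes among the 12 largest falls belonged to none of these lists. Ly6a, the surface protein Sca-1, stood at 42.1 and 53.6 FPKM in the STAT6-null and 2.98 and 6.49 FPKM in the double-null libraries (log2 difference -3.15, SE 0.277, adjusted p = 0.00166), with both double-null libraries far below the STAT6-null pair though apart from each other. Foxb1, a forkhead factor, stood at 7.36 and 7.02 FPKM in the STAT6-null and 0.837 and 1.24 FPKM in the double-null libraries (log2 difference -2.01, SE 0.112, adjusted p = 0.000258). Fam20a, a secreted pseudokinase, stood at 20.6 and 23.4 FPKM in the STAT6-null and 4.49 and 5.78 FPKM in the double-null libraries (log2 difference -1.91, SE 0.117, adjusted p = 0.000392). Sfn, the stratifin protein of epithelia, stood at 5.67 and 3.74 FPKM in the STAT6-null and 0.653 and 0.754 FPKM in the double-null libraries (log2 difference -1.72, SE 0.1595, adjusted p = 0.00191). None of these overlapped between genotypes.

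Every gene of the interferon-inducible GTPase list fell, 19 of 19 tested (median -1.19, and 17 or 18 without 1 of the STAT6-null libraries). These GTPases gather at membranes around intracellular microbes. The sum of their FPKM was 582.2 to 593.5 in STAT6-null and 254.9 to 270.9 in double-null libraries. Iigp1 stood at 22.03 and 23.9 FPKM in the STAT6-null and 1.55 and 2.07 FPKM in the double-null libraries, 12.7-fold lower (log2 difference -3.10, SE 0.106, adjusted p = 5.18e-05). Irgm1 stood at 50.9 and 46.1 FPKM in the STAT6-null and 13.4 and 14.7 FPKM in the double-null libraries (log2 difference -1.72, SE 0.0775, adjusted p = 0.000136). The least changed member, Gvin1, gave -0.60. Tgtp1 (-1.62) and Tgtp2 (-1.497), like several guanylate-binding protein genes, are near-identical copies whose reads can be shared, so the split between copies is uncertain.

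The remaining interferon-stimulated antiviral genes moved less, with 8 of 22 tested lower and 0 higher (median -0.34). Zbp1, a sensor of left-handed nucleic acid, stood at 19.7 and 17.9 FPKM in the STAT6-null and 7.65 and 9.82 FPKM in the double-null libraries (log2 difference -1.03, SE 0.115, adjusted p = 0.00366). Parp14, an ADP-ribosyltransferase, stood at 10.6 and 10.2 FPKM in the STAT6-null and 4.99 and 5.59 FPKM in the double-null libraries (log2 difference -0.86, SE 0.0783, adjusted p = 0.00185). Several genes that type I interferon also induces did not pass, among them Ifit1 (-0.13), Irf7 (-0.50) and Stat2 (-0.37). The count was 2 with either STAT6-null library left out and 11 without double-null replicate 2. The call of Rtp4 was lost when STAT6-null replicate 1 or STAT6-null replicate 2 or double-null replicate 1 was left out, and over all alternatives the adjusted p ran from 0.0159 to 0.208. The call of Trim30a was lost when either STAT6-null library was left out, and over all alternatives the adjusted p ran from 0.00374 to 0.132.

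MHC class I and antigen processing genes gave 12 of 21 lower and 0 higher (median -0.33). Tap1, a subunit of the peptide transporter, stood at 101 and 99.5 FPKM in the STAT6-null and 48.3 and 58.98 FPKM in the double-null libraries (log2 difference -0.90, SE 0.0951, adjusted p = 0.0031). Psmb9, an immunoproteasome subunit, stood at 62.2 and 60.7 FPKM in the STAT6-null and 28.5 and 39.1 FPKM in the double-null libraries (log2 difference -0.86, SE 0.134, adjusted p = 0.0118). H2-T22 (-1.33) and H2-Q7 (-1.24) fell most, and both are members of families of near-identical genes, so their values are uncertain. Double-null replicate 1 was the lower of its pair for all 4 of these genes. The count was 2 with either STAT6-null library left out and 17 without double-null replicate 2. The calls of Psmb9, H2-T22 and H2-Q7 were lost when either STAT6-null library was left out, and over all alternatives the adjusted p ran from 0.000539 to 0.108, 0.00203 to 0.149 and 0.000788 to 0.135, in that order.

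Th17 genes rose, with 4 of 6 Th17 cytokines and chemokines higher and 2 lower (median 1.90). Il17a, the cytokine that recruits neutrophils through epithelia, stood at 500.1 and 581 FPKM in the STAT6-null and 2374 and 2620.5 FPKM in the double-null libraries, 4.62-fold higher (log2 difference 2.21, SE 0.0917, adjusted p = 9.77e-05). Il17f, its relative, stood at 968 and 1072 FPKM in the STAT6-null and 4163 and 4691 FPKM in the double-null libraries, 4.34-fold higher (log2 difference 2.12, SE 0.0873, adjusted p = 9.77e-05). Il22, which acts on keratinocytes, stood at 32.6 and 33.8 FPKM in the STAT6-null and 123 and 162 FPKM in the double-null libraries, 4.29-fold higher (log2 difference 2.05, SE 0.123, adjusted p = 0.000368). All 3 were higher in both double-null libraries. Iltifb, a near-identical copy of Il22 whose reads cannot be separated from it with confidence, went from 7.08 and 7.26 to 23.9 and 37.7 FPKM (log2 difference 1.92). The 2 that fell were Csf2 and Il21, given with the cytokines.

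Regulators and receptors of Th17 cells gave 14 higher and 4 lower of 28 (median 0.21). Tmem176a and Tmem176b, ion channels of Th17 cells, gave 1.79 and 1.76, the second from 4.07 and 4.596 to 15.4 and 18.9 FPKM. Serpinb1a, a protease inhibitor found in Th17 cells, stood at 2.82 and 3.19 FPKM in the STAT6-null and 11.9 and 12.5 FPKM in the double-null libraries (log2 difference 1.72, SE 0.0804, adjusted p = 0.000153). Il1r1 (1.19), Ahr (0.64) and Rora (0.59) also rose. Of the same list, Maf (-0.52) and Stat3 (-0.30) fell, Runx1 (0.31) and Il6st (0.28) rose, and Batf (-0.05) and Irf4 (-0.12) did not pass. The counts were 10 higher and 0 lower without STAT6-null replicate 1, and 11 and 1 without replicate 2. The call of Maf was lost when either STAT6-null library was left out, and over all alternatives the adjusted p ran from 0.00284 to 0.126.

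Some of the largest rises were in genes outside the Th17 lists. Cpe, a carboxypeptidase that trims peptide hormones, stood at 2.79 and 3.13 FPKM in the STAT6-null and 18.3 and 21.8 FPKM in the double-null libraries, 6.78-fold higher (log2 difference 2.41, SE 0.0995, adjusted p = 9.77e-05). Npy, the neuropeptide Y gene, stood at 23.7 and 27.6 FPKM in the STAT6-null and 103 and 216 FPKM in the double-null libraries (log2 difference 2.50, SE 0.306, adjusted p = 0.00509), and its double-null libraries were wide apart. Rps27, a ribosomal protein gene with many processed copies in the genome, stood at 112 and 137 FPKM in the STAT6-null and 404 and 1692 FPKM in the double-null libraries (log2 difference 2.73, SE 0.5805, adjusted p = 0.0291). Its double-null values were so far apart that the size of the rise is poorly fixed. Areg, the epidermal growth factor relative amphiregulin, stood at 249 and 264 FPKM in the STAT6-null and 568 and 681 FPKM in the double-null libraries (log2 difference 1.27, SE 0.0934, adjusted p = 0.000886). The call of Npy was lost when STAT6-null replicate 1 was left out, and over all alternatives the adjusted p ran from 0.00012 to 0.0592. The call of Rps27 was lost when either STAT6-null library was left out, and over all alternatives the adjusted p ran from 0.00012 to 0.178.

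Cytokine genes did not move as a block. Beside Ifng, Csf2, the growth factor GM-CSF, stood at 104 and 89.4 FPKM in the STAT6-null and 22.7 and 18.7 FPKM in the double-null libraries and fell 4.68-fold (log2 difference -2.18, SE 0.1102, adjusted p = 0.000204). Il3, a growth factor for mast cells and basophils, stood at 125 and 133 FPKM in the STAT6-null and 71.8 and 38.7 FPKM in the double-null libraries (log2 difference -1.28, SE 0.2497, adjusted p = 0.0228), both double-null values being lower but wide apart. Tnf stood at 1203 and 1144 FPKM in the STAT6-null and 1249 and 1099 FPKM in the double-null libraries, and the genotypes overlapped (log2 difference -0.002, 95% interval -0.19 to 0.19, adjusted p = 0.992). Il2, the T cell growth factor, stood at 4141 and 4306 FPKM in the STAT6-null and 6133 and 5044 FPKM in the double-null libraries. It was higher in both double-null libraries but did not pass the test (log2 difference 0.40, 95% interval 0.15 to 0.65, adjusted p = 0.0512), though 8 of 14 alternatives called it, with adjusted p from 0.00825 to 0.293. The call of Il3 was lost when either STAT6-null library was left out, and over all alternatives the adjusted p ran from 0.000156 to 0.137.

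The type 2 cytokine genes, which lie in 1 cluster, split. Il4, the Th2 inducer, stood at 1238 and 1275 FPKM in the STAT6-null and 747 and 711 FPKM in the double-null libraries (log2 difference -0.79, SE 0.06101, adjusted p = 0.00107). Il13, an effector of barrier change, stood at 865 and 775 FPKM in the STAT6-null and 619 and 525 FPKM in the double-null libraries (log2 difference -0.52, SE 0.0963, adjusted p = 0.0198). Il5, the eosinophil growth factor, stood at 31.7 and 23.4 FPKM in the STAT6-null and 54.05 and 54.6 FPKM in the double-null libraries (log2 difference 0.97, SE 0.1298, adjusted p = 0.00706). Thus Il4 and Il13 were lower in both double-null libraries, whereas Il5 was higher in both. Il9, the product of Th9 cells, stood at 4.54 and 4.62 FPKM in the STAT6-null and 15.9 and 16.2 FPKM in the double-null libraries, 3.499-fold higher (log2 difference 1.61, SE 0.0667, adjusted p = 9.77e-05). The call of Il13 was lost when either STAT6-null library was left out, and over all alternatives the adjusted p ran from 0.00295 to 0.171.

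Il10, which restrains inflammation, stood at 2462 and 2546 FPKM in the STAT6-null and 1338 and 1631 FPKM in the double-null libraries (log2 difference -0.76, SE 0.1002, adjusted p = 0.00664). Il21, which helps B cells, stood at 1467 and 1516 FPKM in the STAT6-null and 1130.2 and 1134 FPKM in the double-null libraries (log2 difference -0.40, SE 0.0595, adjusted p = 0.0105). Both fell by less than 2-fold, and the factors Maf (-0.52, from 106 and 103 to 67.04 and 78.7 FPKM) and Prdm1 (-0.61, from 51.1 and 50.8 to 32.1 and 33.8 FPKM) fell too. The calls of Il10 and Il21 were lost when either STAT6-null library was left out, and over all alternatives the adjusted p ran from 0.000777 to 0.0757 and 0.00116 to 0.126, in that order.

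**Figure D3:**
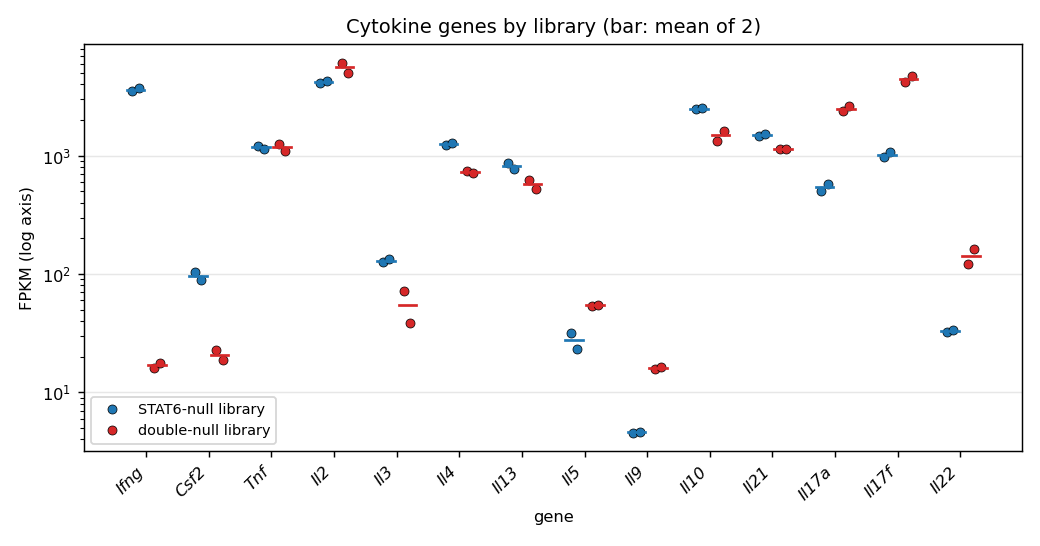
FPKM on a log axis for 14 cytokine genes in each STAT6-null (blue) and double-null (red) library, with a bar at the mean of 2. Ifng, Csf2, Il3, Il4, Il13, Il10 and Il21 lie lower in both double-null libraries, Il5, Il9, Il17a, Il17f and Il22 lie higher, Tnf overlaps, and Il2 lies higher but did not pass the test.

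The wider Th2 list gave 9 higher and 5 lower of 20 (median 0.15). Cysltr1, the cysteinyl leukotriene receptor, stood at 3.97 and 5.06 FPKM in the STAT6-null and 12.5 and 12.3 FPKM in the double-null libraries (log2 difference 1.29, SE 0.104, adjusted p = 0.00122). Il1rl1, the receptor of IL-33, stood at 17.2 and 16.8 FPKM in the STAT6-null and 23.7 and 23.97 FPKM in the double-null libraries (log2 difference 0.47, SE 0.0596, adjusted p = 0.00595), and Gata3, the Th2 master factor, gave 0.32. Without STAT6-null replicate 1 the counts were 4 higher and 2 lower, and without replicate 2 they were 5 and 2. The Th9 list gave 3 higher and 2 lower of 15 (median -0.05, a sign that flips between alternatives). Beside 7.81% higher and 6.04% lower over all genes tested, that count is given as a description. Beside Il9, its receptor Il9r (0.56) and Il17rb (0.42) rose. Il1rn, the IL-1 receptor antagonist, stood at 12.05 and 12.9 FPKM in the STAT6-null and 3.61 and 5.11 FPKM in the double-null libraries (log2 difference -1.35, SE 0.134, adjusted p = 0.00248), and Irf8 fell by less (-0.45). The calls of Il1rl1, Il9r and Irf8 were lost when either STAT6-null library was left out, and over all alternatives the adjusted p ran from 0.000647 to 0.0775, 0.00125 to 0.0918 and 0.00283 to 0.117, in that order.

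**Figure D4:**
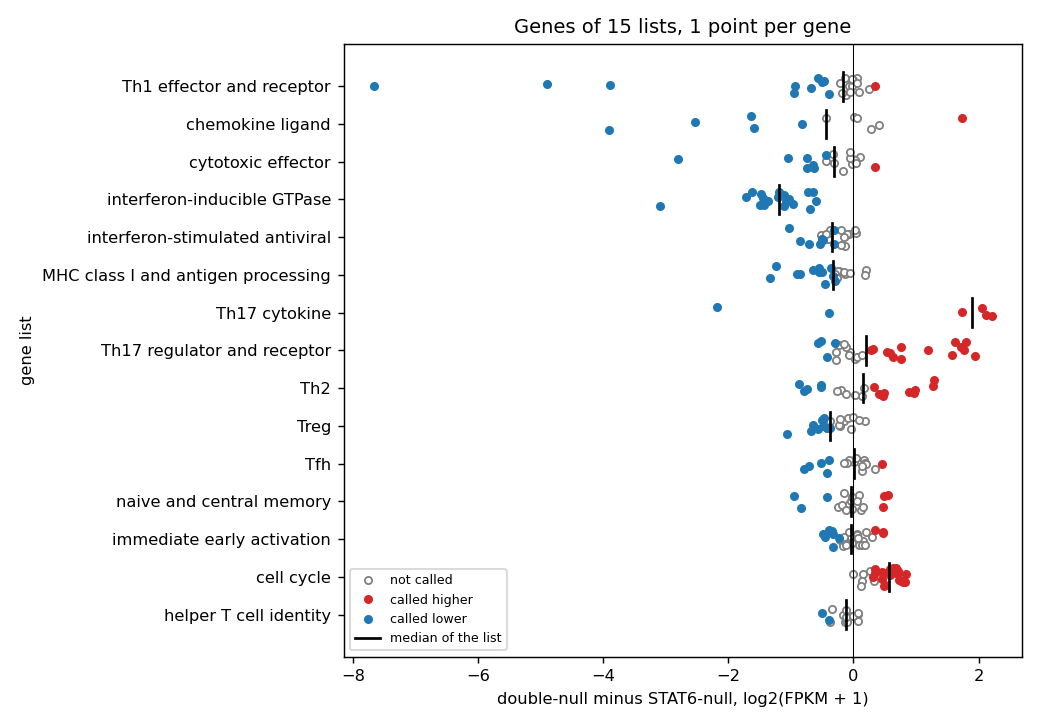
Each point is 1 gene of 15 lists, placed by its double-null minus STAT6-null difference as log2(FPKM + 1); filled points were called higher (red) or lower (blue) and open points were not called, with a black line at the median of the list. The interferon-inducible GTPase list lies wholly below 0 with a median of -1.19, the cell cycle list has a median of 0.57, and the Th17 cytokine list one of 1.90.

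Treg genes gave 9 lower and 0 higher of 20 (median -0.37). Foxp3, the factor that defines these cells, did not pass (-0.15, adjusted p = 0.261), nor did Il2ra (-0.09). Lrrc32, which displays latent TGF-beta, stood at 11.5 and 9.17 FPKM in the STAT6-null and 4.96 and 3.89 FPKM in the double-null libraries (log2 difference -1.06, SE 0.133, adjusted p = 0.00541). Socs2, a feedback inhibitor of cytokine signals, stood at 102 and 106 FPKM in the STAT6-null and 62.4 and 67.3 FPKM in the double-null libraries (log2 difference -0.67, SE 0.06297, adjusted p = 0.00197). Itgae, the integrin CD103, gave -0.65 and Tnfrsf18, the receptor GITR, -0.56. The count was 1 without STAT6-null replicate 1 and 4 without replicate 2. The calls of Lrrc32, Itgae and Tnfrsf18 were lost when STAT6-null replicate 1 was left out, and over all alternatives the adjusted p ran from 0.000254 to 0.0503, 0.000309 to 0.0622 and 0.000636 to 0.0652, in that order.

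Coinhibitory genes gave 9 lower and 1 higher of 21 (median -0.21). Cd160, a ligand of the herpesvirus entry mediator, stood at 18.5 and 16.4 FPKM in the STAT6-null and 6.76 and 6.43 FPKM in the double-null libraries, 2.65-fold lower (log2 difference -1.28, SE 0.0805, adjusted p = 0.000453). Lag3, which binds MHC class II, stood at 133 and 118 FPKM in the STAT6-null and 52.7 and 76.3 FPKM in the double-null libraries (log2 difference -0.97, SE 0.162, adjusted p = 0.0145). Pdcd1, the receptor PD-1, gave -0.08 and did not pass. The count that fell was 2 with either STAT6-null library left out. The call of Lag3 was lost when either STAT6-null library was left out, and over all alternatives the adjusted p ran from 0.00112 to 0.126.

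Genes of follicular helper cells gave 1 higher and 5 lower of 17 (median 0.01), and Bcl6, their master factor, gave 0.18 and did not pass. With 7.81% higher and 6.04% lower over all genes tested, this count and that of the naive list are descriptions. Those that fell were Il4, Cxcr5, Maf, Il6ra and Il21, and the gene that rose was Pou2af1 (0.45). Naive and central memory genes gave 3 of 18 each way (median -0.03): S1pr1 and Txk were among those that rose, and Ccr7, Cd27 and Il6ra fell. Cd27, a costimulatory receptor, stood at 127 and 121 FPKM in the STAT6-null and 67.98 and 70.7 FPKM in the double-null libraries (log2 difference -0.83, SE 0.0584, adjusted p = 0.000726). The median of both lists changed sign between alternatives. Without STAT6-null replicate 1 the follicular helper list gave 0 higher and 1 lower and the naive list 1 and 2, and without replicate 2 they gave 0 and 2 each. The call of Pou2af1 was lost when either STAT6-null library was left out, and over all alternatives the adjusted p ran from 0.00112 to 0.113.

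Genes of adhesion and tissue residence gave 2 higher and 3 lower of 20 (median -0.06). As 7.81% of all genes tested were called higher and 6.04% lower, this count is given as a description. Fut7, which builds selectin ligands, gave 0.52, and Selplg, the selectin ligand PSGL-1, -0.44. Itgb8, an integrin chain that activates TGF-beta, stood at 45.5 and 45.9 FPKM in the STAT6-null and 33.02 and 32.7 FPKM in the double-null libraries (log2 difference -0.46, SE 0.0552, adjusted p = 0.00448). The list gave 0 calls without STAT6-null replicate 1, and 0 higher and 1 lower without replicate 2. The call of Fut7 was lost when STAT6-null replicate 1 or STAT6-null replicate 2 or double-null replicate 2 was left out, and over all alternatives the adjusted p ran from 0.012 to 0.225. The calls of Selplg and Itgb8 were lost when either STAT6-null library was left out, and over all alternatives the adjusted p ran from 0.00906 to 0.19 and 0.00123 to 0.0749, in that order. Fut7 also lost its call under no intensity trend, a pseudocount of 5 and no filter. TNF ligands and receptors gave 4 higher and 7 lower of 25 (median -0.14). Tnfrsf8, the receptor CD30, stood at 3.45 and 2.97 FPKM in the STAT6-null and 6.34 and 10.2 FPKM in the double-null libraries (log2 difference 1.11, SE 0.19002, adjusted p = 0.0155). Its 2 double-null values were apart, though both lay above the STAT6-null pair. Cd70, the ligand of CD27, stood at 2.37 and 2.48 FPKM in the STAT6-null and 0.792 and 1.11 FPKM in the double-null libraries (log2 difference -0.82, SE 0.105, adjusted p = 0.00597), so that ligand and receptor were both lower. Tnfrsf25 gave 0.66. The counts were 1 higher and 1 lower without STAT6-null replicate 1, and 2 and 3 without replicate 2. The calls of Tnfrsf8 and Cd70 were lost when either STAT6-null library was left out, and over all alternatives the adjusted p ran from 0.00206 to 0.108 and 0.000648 to 0.0593, in that order.

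Immediate early genes, which report the strength of stimulation, gave 3 higher and 7 lower of 28 (median -0.04, with a sign that flips between alternatives, and 0 called with either STAT6-null library left out). Jun (0.47) and Egr4 (0.47) rose, Dusp2 (-0.49) and Btg2 (-0.46) fell, and Fos gave -0.22 without passing. IL-2 and STAT5 response genes gave 2 higher, among them Osm (0.64), and 5 lower of 21 (median -0.04), and 0 and 2 without either STAT6-null library. Glycolysis gave 2 each way of 17, with Hk1 (-0.70) and Pfkfb3 (-0.27) lower and Eno1 (0.62) and Pgk1 (0.35) higher. Without either STAT6-null library the glycolysis counts were 0 higher and 1 lower, and without double-null replicate 1 they were 6 and 1. Heat shock and dissociation stress genes also gave 2 each way, of 15, with the metallothioneins Mt1 (-0.80) and Mt2 (-0.87) lower and the chaperones Hsp90ab1 (0.25) and Hspa5 (0.25) higher. Without either STAT6-null library these counts were 0 higher and 1 lower. Of all genes tested, 7.81% were called higher and 6.04% lower, so nothing particular to these lists is read from such counts. The medians of the last 3 lists changed sign between alternatives. The calls of Jun, Dusp2, Btg2, Osm, Eno1, Pgk1 and Mt1 were lost when either STAT6-null library was left out, and over all alternatives the adjusted p ran from 0.00392 to 0.0985, 0.00419 to 0.187, 0.00272 to 0.149, 0.00242 to 0.0648, 0.00187 to 0.11, 0.0038 to 0.191 and 0.00114 to 0.129, in that order. The calls of Egr4 and Hsp90ab1 were lost when STAT6-null replicate 1 or STAT6-null replicate 2 or double-null replicate 2 was left out, and over all alternatives the adjusted p ran from 0.00907 to 0.141 and 0.0176 to 0.288, in that order. The call of Pfkfb3 was lost when any 1 of the 4 libraries was left out, and over all alternatives the adjusted p ran from 0.00866 to 0.242. The call of Hspa5 was lost when STAT6-null replicate 1 or STAT6-null replicate 2 or double-null replicate 1 was left out, and over all alternatives the adjusted p ran from 0.0177 to 0.317. Pfkfb3 also lost its call under no intensity trend. Hsp90ab1 also lost its call under no intensity trend, no filter, quantile normalization and replicate block. Hspa5 also lost its call under no intensity trend, no filter, median-of-ratios scaling, quantile normalization and replicate block.

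Cell cycle genes rose together, 23 of 30 tested being higher and 0 lower (median 0.57). Ccnb2, a mitotic cyclin, stood at 3.04 and 3.69 FPKM in the STAT6-null and 5.89 and 7.73 FPKM in the double-null libraries (log2 difference 0.83, SE 0.133, adjusted p = 0.0127). Birc5, the mitotic protein survivin, stood at 7.18 and 8.29 FPKM in the STAT6-null and 13.7 and 15.1 FPKM in the double-null libraries (log2 difference 0.82, SE 0.0892, adjusted p = 0.00341). Rrm2, a subunit of the enzyme that makes deoxynucleotides, stood at 9.87 and 9.42 FPKM in the STAT6-null and 15.7 and 19.5 FPKM in the double-null libraries (log2 difference 0.80, SE 0.105, adjusted p = 0.00648). All 3 lay higher in both double-null libraries. Replication genes such as Mcm3 (0.67) and mitotic genes such as Aurka (0.81) both rose. The count was 2 without STAT6-null replicate 1 and 3 without replicate 2, and it was 24 and 18 without each of the double-null libraries. The calls of Ccnb2 and Rrm2 were lost when either STAT6-null library was left out, and over all alternatives the adjusted p ran from 0.0011 to 0.112 and 0.000694 to 0.066, in that order.

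Genes that identify helper T cells were present in all 4 libraries, with Cd4 at 127 and 127 FPKM in the STAT6-null and 88.1 and 110.1 FPKM in the double-null libraries (log2 difference -0.37, which did not pass). Of 14 tested, Cd3g (-0.51) and Cd3d (-0.39) fell and 0 rose (median -0.12). The calls of Cd3g and Cd3d were lost when either STAT6-null library was left out, and over all alternatives the adjusted p ran from 0.00256 to 0.13 and 0.00324 to 0.124, in that order. Of CD8 T cell markers, Cd8b1 alone was tested and overlapped, at 4.103 and 3.02 FPKM in the STAT6-null and 3.3996 and 4.46 FPKM in the double-null libraries. B cell markers gave 1 lower, Cd22, of 7 tested (median -0.61), and all 7 differences lay below 0, from -0.78 to -0.28. That median was -0.12 without STAT6-null replicate 1 and -1.2 without replicate 2. Counts of the short marker lists, here and below, stand beside 7.81% higher and 6.04% lower over all genes tested and are descriptions. Their summed level was 83.35 to 191.8 FPKM in STAT6-null and 80.16 to 85.62 in double-null libraries, and Cd74 (log2 difference -0.61), at 105 and 45.5 FPKM in the STAT6-null and 42.3 and 47.8 FPKM in the double-null libraries, set STAT6-null replicate 1 apart. Pax5 and Ebf1 were not listed.

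Myeloid and dendritic markers gave 4 lower of 9 tested, Lyz1, Lyz2, Zbtb46 and Ctss, with a summed level of 150.3 to 152.7 FPKM in STAT6-null and 117.9 to 142.2 in double-null libraries, and Itgam, Itgax and Csf1r not listed. NK markers gave 1 lower of 3, Gzma, with sums of 2.71 to 3.93 and 1.506 to 2.375 FPKM, and Ncr1 not listed. Innate-like T cell markers gave 0 of 2, with sums of 0.9307 to 2.075 and 1.069 to 1.099 FPKM, and Trdc not listed. A marker that is not listed is no sign that its cells were absent. The antigen receptor genes Trac, Trbc1 and Trbc2 were not listed either, and genes under 0.1 FPKM in any library are missing. Innate lymphoid markers gave 4 higher and 1 lower of 10, with sums of 303.3 to 306.6 and 380.3 to 400.0 FPKM. Those that rose included Kit (0.83), Hlf (0.81) and Il1rl1, and Il1rl1 is also a gene of Th2 cells. The mast cell list held Kit, at 32.5 and 33.96 FPKM in the STAT6-null and 56.7 and 62.9 FPKM in the double-null libraries, and Hdc, which did not pass (0.11), with sums of 33.72 to 34.89 and 57.98 to 64.04 FPKM, and Cpa3 and Fcer1a not listed. The part of such cells in the changes above was not tested.

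Pecam1, the 1 stromal and endothelial marker tested, rose (0.33), with sums of 8.145 to 8.778 in STAT6-null and 10.7 to 11.25 FPKM in double-null libraries. Keratinocyte markers gave 2 lower of 4, Sfn and Epcam (-0.38), with sums of 80.74 to 80.94 and 65.45 to 73.34 FPKM, and Krt5 and Krt14 not listed. The erythroid genes Hba-a1 (-0.12) and Beta-s (-0.38) did not pass, with sums of 2.771 to 6.031 and 2.631 to 3.685 FPKM. Y-linked genes, of which 4 were tested, summed to 37.28 and 43.15 FPKM in the STAT6-null and to 29.46 and 67.94 FPKM in the double-null libraries, and 0 passed. Without double-null replicate 1 all 4 were called higher, and without replicate 2 there were 0 higher and 1 lower. The double-null replicates therefore differed by more than 2-fold in Y-linked RNA, and the labels give no sex. Whether that difference moved with other genes was not tested. The call of Cd22 was lost when STAT6-null replicate 1 or STAT6-null replicate 2 or double-null replicate 2 was left out, and over all alternatives the adjusted p ran from 0.0054 to 0.151. The calls of Lyz2, Ctss and Epcam were lost when either STAT6-null library was left out, and over all alternatives the adjusted p ran from 0.00256 to 0.211, 0.0116 to 0.21 and 0.00632 to 0.142, in that order. The calls of Zbtb46 and Pecam1 were lost when any 1 of the 4 libraries was left out, and over all alternatives the adjusted p ran from 0.0264 to 0.239 and 0.00911 to 0.231, in that order. Lyz2 also lost its call under a fit over all 8 libraries, no intensity trend and no filter. Zbtb46 also lost its call under a pseudocount of 5 and quantile normalization. Ctss also lost its call under no intensity trend.

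The effect of T-bet loss was then set beside that with STAT6 intact, in T-bet-null against WT cells, which shares no library with it. The question was whether the same deletion had the same size of effect on the 2 backgrounds, tested in limma as the difference of the 2 differences over all 8 libraries. That difference passed in 5889 of 10281 genes (57.3%; 3046, 29.6%, higher and 2843, 27.7%, lower on the STAT6-null background). With WT libraries that stood apart from all mutants, a difference in how WT cells were prepared cannot be told apart from the T-bet effect in the STAT6-intact comparison, where 34.2% of genes were called higher and 36.3% lower. A called difference is therefore common here, and the genes below are given as values. The erythroid genes summed to 211.9 and 421.1 FPKM in the WT and to 6.476 and 7.214 FPKM in the T-bet-null libraries. Y-linked genes summed to 103.7 and 110 FPKM in the WT and to 33.75 and 34.07 FPKM in the T-bet-null libraries. For the immediate early genes the sums were 19240 and 19650 FPKM in the WT and 11220 and 11860 FPKM in the T-bet-null libraries. The part of these 3 lists in the differences between backgrounds was not tested.

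Of the 621 genes lower on the STAT6-null background, 376 were also called lower with STAT6 intact, 128 were called higher there and 117 were not called. Of the 803 genes higher, 427 were also higher there, 229 were lower and 147 were not called. In 357 genes the called signs were opposite and the difference itself passed.

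Cxcr3 fell on both backgrounds, at -3.89 with STAT6 absent and -3.77 with STAT6 intact, and the difference of -0.12 did not pass (adjusted p = 0.417). Ifng started at 1029 and 1250.4 FPKM in WT and ended at 32.4 and 33.9 in T-bet-null libraries. The log2 difference was -5.06 there against -7.66 on the STAT6-null background (difference -2.60, adjusted p = 4.86e-06). Both double-null and T-bet-null cells thus ended low in Ifng, whereas the STAT6-null cells started higher than WT. Ccl3 gave -1.46 with STAT6 intact and -3.92 without (difference -2.45, adjusted p = 4.86e-06). Il23r rose by 0.42 and 1.94 (difference 1.52), and Ccr6 by 0.68 and 1.63 (difference 0.95). Il17a rose by 1.23 and 2.21, and Il17f by 1.33 and 2.12.

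Il4 showed the widest contrast among the cytokines. It went from 183 and 117 FPKM in WT to 2079 and 2048 in T-bet-null libraries, a rise of 3.81, and from 1238 and 1275 to 747 and 711 FPKM with STAT6 absent, a difference of -0.79. Il13 likewise gave 2.57 and -0.52, and Il3 1.82 and -1.28. Il4, Il13 and Il3 were thus higher after T-bet loss with STAT6 intact and lower after it with STAT6 absent. These genes were also chosen for opposite signs and a passing difference, so the contrast is a description and not a test. Il5 rose on both backgrounds, by 3.37 and 0.97 (difference -2.41), and so did Il9, by 2.76 and 1.61 (difference -1.15).

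Il22 went the other way. It stood at 21.3 and 24.1 FPKM in WT and 9.64 and 9.73 in T-bet-null libraries. The difference was -1.15 with STAT6 intact against 2.05 with STAT6 absent. Il22, like Tmem176b, Sytl1 and Cd160, was chosen for opposite signs and a passing difference, so this is a description and not a test. Tmem176b (-0.54 and 1.76) and Sytl1 (-1.36 and 1.04), a regulator of vesicle release, had the same pair of signs, Sytl1 going from 2.204 and 2.49 to 5.56 and 6.22 FPKM with STAT6 absent, whereas Cd160 had the reverse (2.26 and -1.28). Csf2 fell on both, at -1.09 and -2.18 (difference -1.09). Il10 gave 0.45 and -0.76 and Il21 0.55 and -0.40, so both also had opposite signs. Irgm1 (-1.70 and -1.72), Tgtp1 (-1.48 and -1.62) and Tap1 (-0.87 and -0.90) fell by similar amounts on both, and their differences did not pass (adjusted p = 0.891, 0.277 and 0.861). A p that misses the threshold does not show that the effects are equal.

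**Figure D5:**
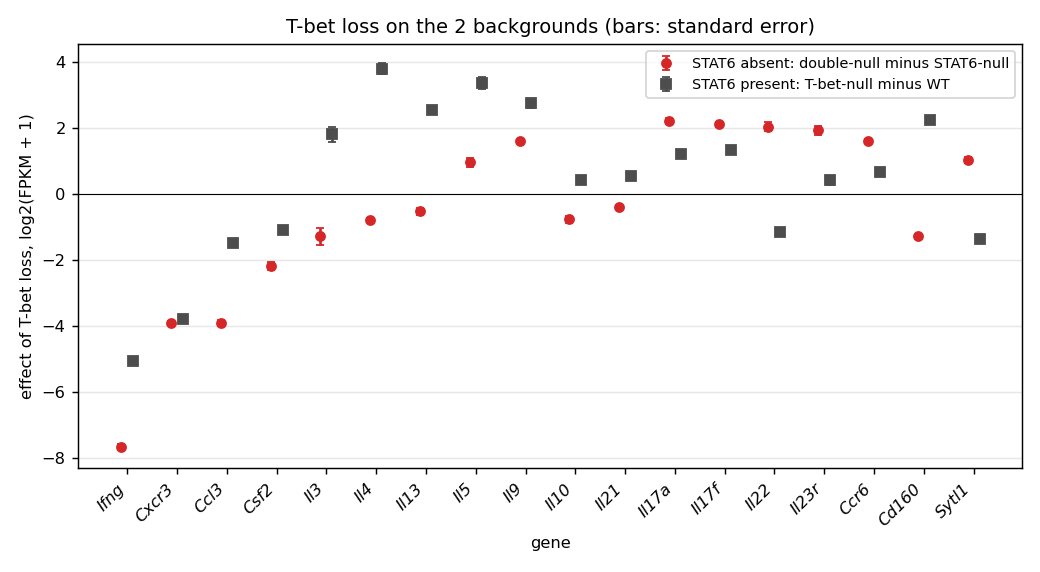
Effect of T-bet loss on log2(FPKM + 1) for 18 genes, with STAT6 absent (red circles, double-null minus STAT6-null) and with STAT6 present (grey squares, T-bet-null minus WT); bars are standard errors from limma. The circles and squares lie close for Cxcr3 and on opposite sides of 0 for Il3, Il4, Il13, Il10, Il21, Il22, Cd160 and Sytl1.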

How the data were processed

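FPKM values were deposited by the authors in 1 table with a column per library; Cufflinks and genome build mm10 are named in the submitters' processing notes, and RefSeq in the table's name. Aligner, versions and strand setting are not given in the sources used, so overlapping and antisense genes may share reads. All values lay at 0.1 FPKM or above, so genes under that level in any library were not analysed here. Of 11906 lines, 65 repeats of a symbol were set aside.

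Values were taken as log2(FPKM + 1). limma 3.58.1 in R 4.3.3, with empirical Bayes moderation and an intensity trend, was fitted to the 4 libraries (2 residual and 4.503 prior degrees of freedom), and to all 8 for the difference between backgrounds. Two-sided p-values were Benjamini-Hochberg adjusted over all 10281 genes, and genes called under 0.05. The fit was also run on simulated normal values with the same spread per gene in both genotypes. That run does not cover the unequal replicate spread of these data.

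There were 34 gene lists with 641 entries. The genes described were chosen with earlier results of these data known: targeted genes, 5 markers, cytokines, the 12 largest rises and falls, up to 4 called genes a list, and the largest contrasts of opposite sign. A few others were named to describe a list, and some genes of the lists are counted but not reported here. Alternatives were other fits, pseudocounts, filters and scalings, a replicate block, and leaving out each library; list counts without each library were added after the data were seen.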

Additional observations from a re-analysis of the deposited data

Results flagged for a closer look

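For the genes below, the effect of T-bet loss differed between the STAT6-null background and that with STAT6 intact by limma's test of the difference, which passed in 57.3% of all genes. Several of them, Il3, Il4, Il13, Il22, Iltifb, Tmem176b, Cd160 and Sytl1, were chosen for opposite signs on the 2 backgrounds, so their differences are a description and not a test. Of the markers and cytokines, Cxcr3 and Il2 did not pass. The values below are the effect on the STAT6-null background minus the effect with STAT6 intact, on the log2(FPKM + 1) scale. The effect was lower on the STAT6-null background for Il4 at -4.59, Cd160 at -3.54, Il3 at -3.10, Il13 at -3.09, Ifng at -2.60, Ccl3 at -2.45, Il5 at -2.40, Il10 at -1.21, Il9 at -1.15, Csf2 at -1.09 and Il21 at -0.95. It was higher for Il22 at 3.20, Iltifb at 2.98, Sytl1 at 2.40, Tmem176b at 2.30, Il23r at 1.52, Il17a at 0.98, Ccr6 at 0.95, Il17f at 0.78 and Tnf at 0.34. Each of these rests in part on the WT libraries, which stood apart from all mutant libraries.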

How the results depend on the processing

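No gene called changed direction under any alternative, but little of this is a test. Fits over more libraries, without the intensity trend, with a block or with other filters leave the difference itself unchanged. Leaving out 1 library cannot reverse a gene whose genotypes do not overlap. The counts of 803 higher and 621 lower became 1157 and 887 in a fit over all 8 libraries and 1180 and 870 over the 6 mutant libraries, and leaving out 1 library gave 98 to 1180 higher and 132 to 650 lower. Other settings kept both counts within 1.5 times. The count of genes whose effect differed between backgrounds, 5889, was 4992 to 5749 without 1 library. With the replicate number as a block the counts were 865, 671 and 5752. The labels do not say whether same-numbered libraries share a litter, day or batch. Deviations of same-numbered libraries had r over genes of 0.019 between the STAT6-null and double-null pairs. Between the other pairs of genotypes r ran from -0.0899 to 0.0907. Such values cannot settle whether a pairing exists. Of the 117 genes chosen by rule, 106 were called, 99 of these under every other setting and 55 also without each library. In fits without 1 library the differences of 8 uncalled genes took either sign: Tnf ran from -0.0942 to 0.0906, Cd8b1 from -0.0577 to 0.286, Tyrobp from -0.37 to 0.12, Fcer1g from -0.25 to 0.20, Cd163l1 from -0.0715 to 0.0347, Blk from -0.63 to 0.0718, Hba-a1 from -0.60 to 0.36 and Beta-s from -0.77 to 0.0083. These fits differ from the reported one in the number of libraries, and the cause was not otherwise tested. Precision was lowest for genes with a mean up to 2 FPKM. There the median replicate SD over genes was 0.0698 in STAT6-null and 0.077 in double-null libraries on the log2 scale.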
